A study of Mus musculus with 16 samples.

Results

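The immediate early and Nr4a genes were followed through every annotated cell type of a mouse neuroblastoma data set: Fos, Fosb, Jun, Junb, Ier2, Atf3, Dusp1, Nr4a1, Nr4a2 and Nr4a3. They were chosen by name, and all 10 were among the 19715 genes of the expression matrix. Single-cell RNA sequencing (10x Genomics 3' chemistry, V3) had been carried out on tumors grown for 28 days under the skin of 8-week-old male C57BL/6 mice inoculated with NB9464D, a mouse neuroblastoma line. The CD200R-/- (KO) groups and the wild type (WT) groups were each captured in 2 ways, as CD45+ leukocytes sorted from the tumor or as total tumor cells, after mechanical disruption and digestion with collagenase at 1 mg/mL. The 4 groups are called KO sorted, WT sorted, KO tumor and WT tumor, and all mice carried the same line. The sample characteristics name CD200R-/- mice whereas the growth protocol names CD200-/- mice.

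Immediate early genes are transcribed within minutes of a stimulus, without new protein synthesis, when MAP kinase and calcium signals reach factors such as SRF and CREB that already sit at their promoters. Fos and Jun family proteins pair to form AP-1, which in turn controls later genes, while Dusp1 encodes a phosphatase that switches MAP kinases off again. Nr4a1, Nr4a2 and Nr4a3 encode orphan nuclear receptors, are induced in lymphocytes by antigen receptor and calcium signals, and have been linked in T cells to tolerance and exhaustion. Enzymatic digestion of tissue is itself known to induce many of these genes.

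The labels list 16 samples, 4 per group, but the cells carried only 1 library name per group, so each group was 1 library and no test between groups was possible. Differences below are differences between libraries: genotype cannot be told apart from animal, graft or preparation, and the 95% intervals given cover counting error only. Cd200r1, the targeted gene, had 0 UMIs (unique molecular identifiers, the count of captured RNA molecules) in KO sorted against 2888 in WT sorted, and 5 in KO tumor against 76 in WT tumor. The libraries held 4305 (KO sorted), 5219 (WT sorted), 5897 (KO tumor) and 4955 (WT tumor) cells, with medians of 3127, 4665, 16276 and 19850 UMIs per cell. Sorted cells were thus shallower in KO in most classes, as in B cells (2168 in KO sorted and 3118 in WT sorted), which also had more mitochondrial RNA (a median of 7.64% in KO sorted and 4.64% in WT sorted) and less ribosomal protein RNA (17.8% and 29.3%). Across libraries 113 barcodes occurred more than once, and in the sorted fibroblasts they were carried by 18 of 78 KO and 27 of 164 WT cells.

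The authors' 19 cell type names were used as given and checked against marker genes. B cell markers summed to 7651 CPM (UMIs per 1000000 UMIs of the class) in KO sorted and 8685 CPM in WT sorted B cells, and to 17.4 and 28.1 CPM for T cell markers. Several names did not match their markers. Hematopoietic stem cells of the sorted libraries carried B cell markers (4704 CPM in KO sorted and 7856 CPM in WT sorted), whereas those of the tumor libraries had few (57.7 CPM in KO tumor and 20.3 CPM in WT tumor). Cancer stem cells carried erythroid markers at 148584 CPM in WT sorted, with 0 in KO sorted, and their RNA was mostly mitochondrial (medians of 56.8% in KO sorted and 59.8% in WT sorted). Sorted NB cells, named for neuroblastoma, had more macrophage marker RNA (1119 CPM in KO sorted and 4497 CPM in WT sorted) than neuroblastoma marker RNA (98.6 and 70.8 CPM). These 3 names are kept only as labels, and some counts are also given without them, a choice made after seeing the data.

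To show what lies in front of these genes, the 250 bases upstream of the RefSeq start (GRCm38.p6) were searched on both strands for 6 motifs known from signal-responsive promoters, in the 9 members with an entry. The core of the cyclic AMP response element, TGACG, which is found in CREB binding sites, was present in 8 of 9 members, against 17.8% of the 32851 promoters searched. Nr4a1, Nr4a2 and Nr4a3 held 4 cores each, which 0.137% of promoters reach, and Dusp1 held 3, which 0.688% reach. Fos had 2 (at least 2 in 3.90% of promoters), Fosb, Junb and Atf3 had 1 each, and Jun had 0. The windows of the 3 Nr4a genes, Dusp1 and Jun are shown because they differ most in these letters, with each core (TGACG or, on the other strand, CGTCA) in capitals. They lie at chr15:101266596-101266845 (plus strand), chr2:57124004-57124253 (minus), chr4:48045055-48045304 (plus), chr17:26508473-26508722 (minus) and chr4:95052223-95052472 (minus), and are written 5′ to 3′ along the gene's strand.
Nr4a1: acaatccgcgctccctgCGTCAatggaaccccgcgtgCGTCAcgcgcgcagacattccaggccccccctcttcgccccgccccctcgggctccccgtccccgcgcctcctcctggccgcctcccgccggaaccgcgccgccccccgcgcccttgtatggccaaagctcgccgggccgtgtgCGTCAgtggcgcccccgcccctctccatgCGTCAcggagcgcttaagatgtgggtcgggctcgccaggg
Nr4a2: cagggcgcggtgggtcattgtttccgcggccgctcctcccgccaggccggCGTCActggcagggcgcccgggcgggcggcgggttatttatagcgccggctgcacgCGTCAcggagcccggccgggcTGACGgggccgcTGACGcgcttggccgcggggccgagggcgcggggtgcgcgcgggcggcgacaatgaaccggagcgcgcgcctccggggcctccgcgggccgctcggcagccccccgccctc
Nr4a3: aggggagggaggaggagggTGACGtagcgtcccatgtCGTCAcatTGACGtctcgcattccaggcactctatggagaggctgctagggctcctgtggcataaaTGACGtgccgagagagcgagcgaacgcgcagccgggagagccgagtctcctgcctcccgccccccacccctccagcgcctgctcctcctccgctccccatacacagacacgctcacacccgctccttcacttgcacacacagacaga
Dusp1: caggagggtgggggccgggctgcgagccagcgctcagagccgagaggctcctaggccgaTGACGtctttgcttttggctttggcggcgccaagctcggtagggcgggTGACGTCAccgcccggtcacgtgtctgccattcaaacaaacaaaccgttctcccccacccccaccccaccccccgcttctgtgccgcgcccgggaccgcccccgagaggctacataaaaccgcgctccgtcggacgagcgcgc
Jun: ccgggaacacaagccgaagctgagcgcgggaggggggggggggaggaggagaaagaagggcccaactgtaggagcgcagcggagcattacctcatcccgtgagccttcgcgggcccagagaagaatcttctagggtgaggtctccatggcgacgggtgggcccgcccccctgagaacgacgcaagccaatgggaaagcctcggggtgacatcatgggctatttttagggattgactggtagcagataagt
The complete element TGACGTCA occurred in Dusp1 alone among the members (1.55% of promoters), where it contains 2 of the 3 cores, one per strand. The other motifs were less frequent among the members. A TATA box (TATAAA) occurred in Fos and Nr4a2 (12.4% of promoters), and no member window held the AP-1 site TGANTCA (6.75% of promoters), the CArG box bound by SRF (1.47%) or the Nr4a site AAAGGTCA (1.34%). These are matches of letters in one window. Sites further upstream were not searched, so a motif absent here may lie outside the window, and nothing about binding was measured.

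In the annotation (GENCODE, GRCm38) the members lay on 8 chromosomes, Jun and Nr4a3 both on chromosome 4 and Junb and Ier2 both on chromosome 8. Jun (chr4:95049034-95052222, minus strand) shares 232 exon bases with Junos on the other strand, Junb (chr8:84974484-84978718, minus) shares 173 with Prdx2, and Dusp1 (chr17:26505590-26562128, minus) shares 11 with Ergic1. Whether strand was used in counting is not given in the sources used here. Junos had between 31 and 149 UMIs per library against 19143 to 124337 for Jun. Prdx2 had 47244 UMIs in KO tumor and 51705 in WT tumor against 58623 and 36771 for Junb.

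**Figure D1:**
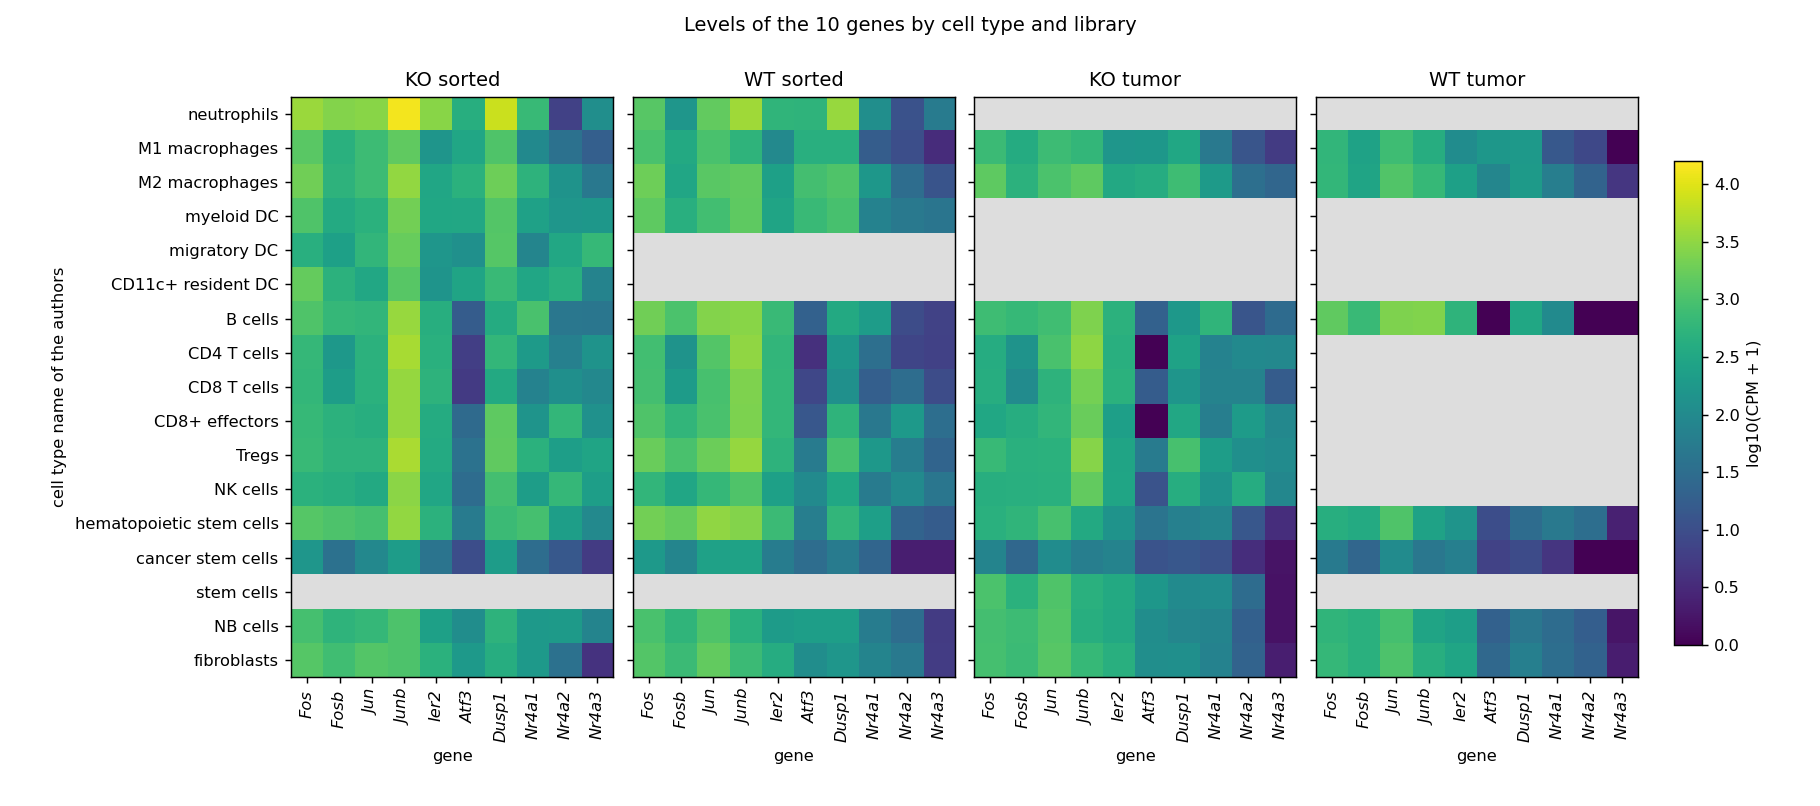
Levels of the 10 genes (columns) in each cell type name (rows) with at least 50 cells, in the KO sorted, WT sorted, KO tumor and WT tumor libraries from left to right. Color gives log10(CPM + 1), and grey marks a class with fewer than 50 cells; sorted neutrophils are the brightest row for Junb (13204 CPM in KO sorted and 4064 CPM in WT sorted) and sorted cancer stem cells the darkest row for Fos (160.4 CPM in KO and 179.6 CPM in WT).

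Levels were taken as CPM of the summed UMIs of a class in a library, and are compared for 1 gene at a time. Fos, a DNA-binding partner in AP-1, was highest in neutrophils in KO sorted (3686 CPM) and in hematopoietic stem cells in WT sorted (2002 CPM, with an interval overlapping that of B cells at 1940.4 CPM). Junb, an AP-1 subunit with a large role in lymphocytes and myeloid cells, was highest in neutrophils, Tregs and CD4 T cells, in that order, in both KO sorted (13204, 4712 and 4417 CPM) and WT sorted (4064, 3444 and 3145 CPM). Dusp1 had its highest levels in neutrophils (7432 CPM in KO sorted and 3611 CPM in WT sorted), then M2 macrophages (1863 and 1117 CPM). Atf3, a stress-induced bZIP factor, was highest in M2 macrophages in both KO sorted (479.7 CPM, not separated from neutrophils at 422 CPM) and WT sorted (875 CPM), whereas CD4 T cells had 5.05 and 2.80 CPM. It was not confined to myeloid classes. Fibroblasts of KO sorted had 179.5 CPM, above migratory DC at 126 CPM, and in KO tumor stem cells (163 CPM) overlapped M1 macrophages (168 CPM). Jun, Fosb and Ier2 were highest in neutrophils in KO sorted (2838, 2605 and 2886 CPM) and in hematopoietic stem cells in WT sorted (3162, 1601 and 739 CPM). Sorted cancer stem cells were the lowest class for Fos (160.4 CPM in KO and 179.6 CPM in WT), Fosb, Jun, Junb, Ier2 and Dusp1 in both libraries.

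The Nr4a genes each had their own leading cell types. Nr4a1 was highest in KO sorted in B cells (973 CPM), with hematopoietic stem cells next (907 CPM, overlapping interval), and the same classes led in WT sorted (208 and 231 CPM). Nr4a2 was highest in NK cells and CD8+ effectors, at 617 and 600.2 CPM in KO sorted (overlapping intervals) and 103 and 178 CPM in WT sorted. Nr4a3 was highest in migratory DC of KO sorted (652 CPM), a class with fewer than 50 cells in WT sorted, followed by Tregs (288 CPM) and NK cells (221 CPM). In WT sorted Nr4a3 was highest in neutrophils (54.2 CPM), then NK cells (43.7 CPM) and myeloid DC (42.6 CPM), with overlapping intervals, and Tregs had 21.4 CPM. In fibroblasts Nr4a3 was close to absent in all 4 libraries (3.20 CPM in KO sorted, 4.68 in WT sorted, 1.25 in KO tumor and 1.20 in WT tumor).

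The first question was how the members differed between KO and WT cells of the same name. Ratios are log2 of the CPM in KO over that in WT, minus the log2 ratio of the median gene in the class, which by total UMIs lay between -0.02 and 0.53 over the 14 sorted classes and between 0.18 and 0.35 over the 7 tumor classes. A gene was taken as higher or lower where it was at least 1.5-fold from the median gene and had at least 50 UMIs over both libraries, in classes with at least 50 cells in each. By construction the median over all genes is 0.

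In the sorted leukocytes the 3 Nr4a genes and Dusp1 were higher in KO, and Jun was lower. Fos and Atf3 were lower in KO in most classes relative to the median gene, but not by total UMIs, where Fos was lower in 4 of 14 and Atf3 in 4 of 10 classes. Of 130 pairs of a member and a class, 52 were higher (40.0%, against 22.3% of the pairs of all genes) and 41 were lower (31.5%, against 24.6%), with a median of 0.05. Scaled by total UMIs the split was 58 higher and 26 lower. By that scaling the median gene itself was higher in KO in every sorted class except cancer stem cells. The share over all genes was not computed for it, so this split has no background beside it. Nr4a1 was higher in 13 of 13 classes measured, Nr4a3 in 12 of 12, Nr4a2 in 10 of 11 and Dusp1 in 9 of 14, and Jun was lower in 13 of 14.

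**Figure D2:**
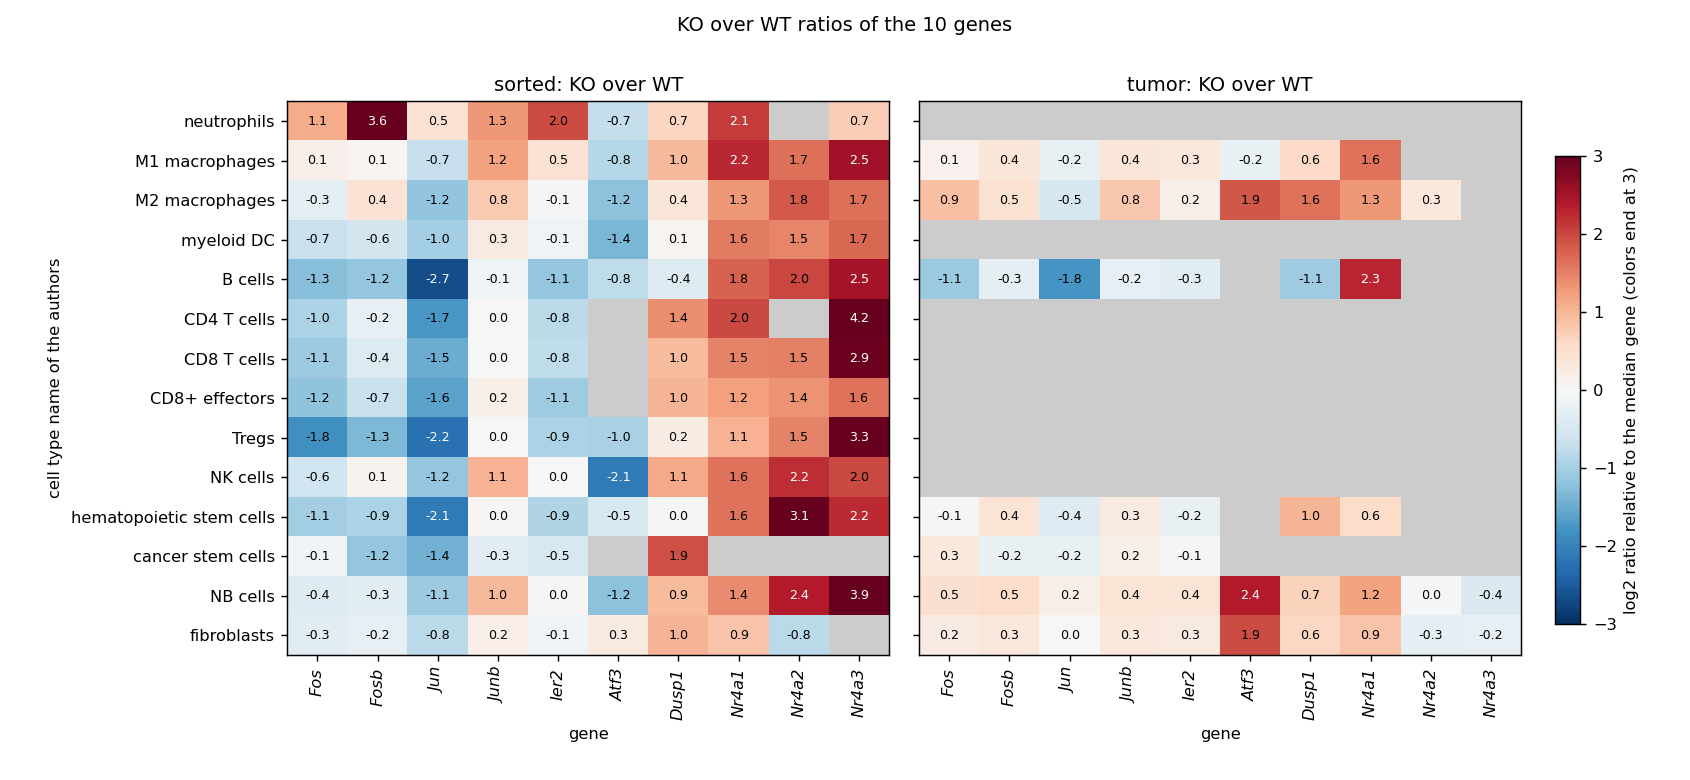
Log2 ratios of KO over WT, relative to the median gene, for the 10 genes (columns) in each cell type name (rows), in the sorted libraries on the left and the tumor libraries on the right. Red is higher in KO, blue lower, and grey marks fewer than 50 cells or fewer than 50 UMIs; in the sorted panel the Nr4a columns are red except Nr4a2 in fibroblasts, and the Jun column is blue except in neutrophils.

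Jun, the founding AP-1 subunit, was lower in KO most of all in lymphocytes. Sorted B cells had 571 CPM of Jun in KO sorted and 2643 CPM in WT sorted, and the tumor libraries repeated this with 808 CPM in KO tumor and 2433 CPM in WT tumor. Both KO libraries were thus below both WT libraries, with log2 ratios of -2.66 (-2.74 to -2.57) in sorted and -1.78 (-2.03 to -1.53) in tumor. After each cell was thinned to 2000 UMIs, which left 568 KO and 919 WT sorted cells, 47.7% of KO and 85.5% of WT sorted B cells had a Jun UMI (50.6% and 90.1% of all cells unthinned). In cancer stem cells, whose Jun level was low, the thinned shares were 5.26% in KO sorted and 24.5% in WT sorted, at median depths of 1402 and 1583 UMIs. Thinning left 38 KO and 110 WT sorted cells of that class, which is set beside other classes below too. Its RNA was mostly mitochondrial, so fewer of its 2000 UMIs came from other genes.

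Tregs gave 509.9 CPM of Jun in KO sorted and 1779 CPM in WT sorted, and hematopoietic stem cells 910.5 and 3162 CPM, ratios of -2.23 and -2.12. In sorted Tregs the regulatory T cell markers Foxp3, Il2ra, Ctla4, Ikzf2 and Tnfrsf18 summed to 5360.0 CPM in KO and 1434 CPM in WT, and the part of this difference in the Jun ratio was not tested. M1 macrophages differed less, with 761 CPM in KO sorted and 988 CPM in WT sorted (-0.68). Neutrophils were the exception, with 2838 CPM in KO sorted and 1568 CPM in WT sorted (0.46). In the tumor libraries Jun was lower in KO in B cells alone of 7 classes, and fibroblasts and NB cells had ratios of 0.00 and 0.18.

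Junb was not lower where Jun was. By total UMIs its level was above that of WT in 13 of the 14 sorted classes, cancer stem cells being the exception, for example at 3581 CPM in KO sorted and 2865 CPM in WT sorted B cells, but relative to the median gene that B cell ratio was -0.12. The classes that passed 1.5-fold were all higher in KO. These 5 were neutrophils (1.30), M1 macrophages (1.21), NK cells (1.05), NB cells (0.97) and M2 macrophages (0.78). M1 macrophages had 1502 CPM of Junb in KO sorted and 528 CPM in WT sorted, and 602 CPM in KO tumor and 409 CPM in WT tumor. In NK cells (2948 CPM in KO sorted and 1109 CPM in WT sorted) macrophage markers were also fewer in KO (145 against 1008 CPM), and their part was not tested.

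The share of Junb among the UMIs of Junb and Jun together needs no scaling and was higher in KO in 14 of 14 sorted classes, with intervals apart in 14. It ranged from 48.0% to 90.2% (median 81.8%) in KO sorted and from 29.6% to 72.9% (median 57.7%) in WT sorted. In the tumor libraries it was higher in KO in 7 of 7 classes, with intervals apart in 6, at medians of 35.8% in KO tumor and 29.8% in WT tumor. B cells showed this in both preparations, with 86.2% in KO sorted and 52.0% in WT sorted, and 75.1% in KO tumor and 50.9% in WT tumor. This share joins the Junb and Jun differences already given, from which it largely follows, and is not separate support for either. Reads from the bases that Junb shares with Prdx2 cannot be told apart if strand was not used in counting.

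**Figure D3:**
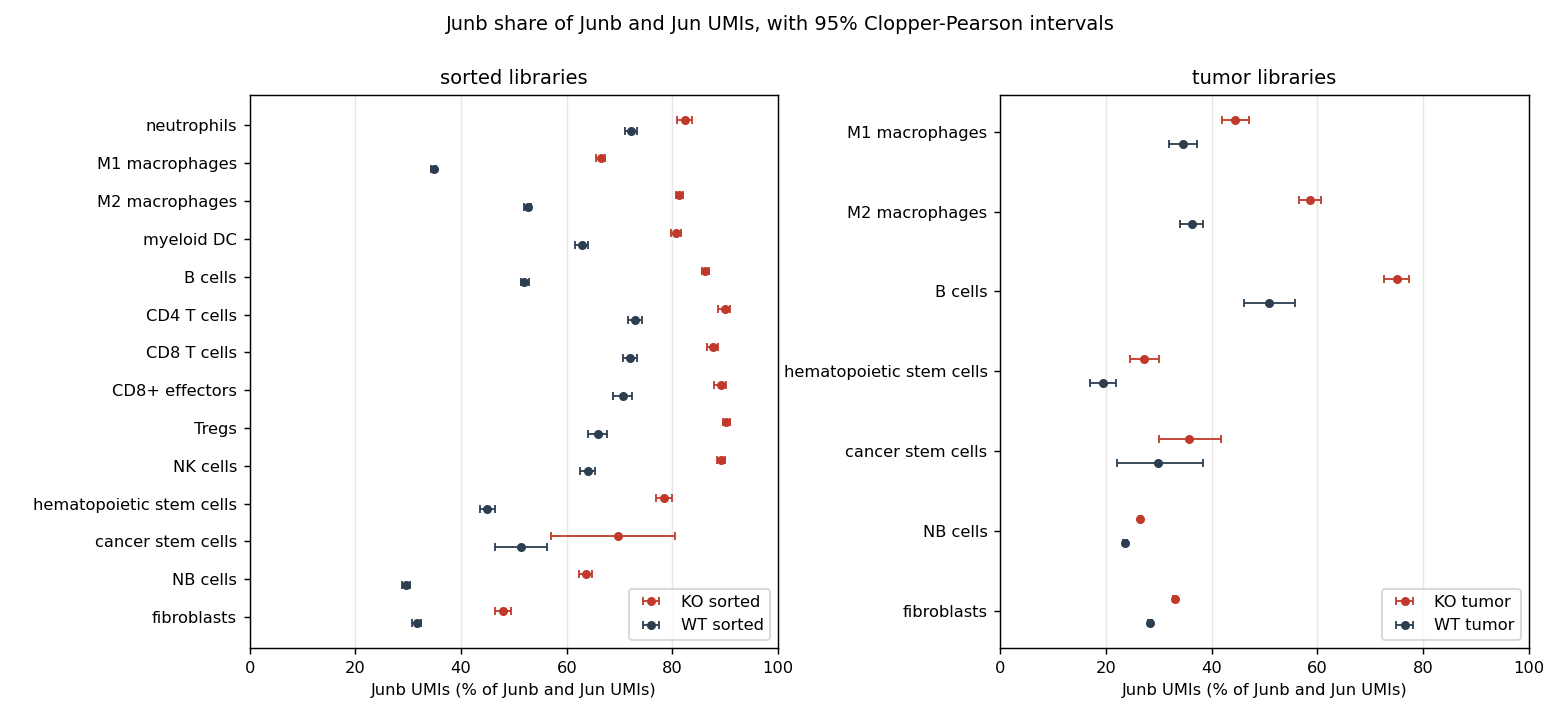
Junb UMIs as a percentage of Junb and Jun UMIs (x axis) in each cell type name (y axis), in the sorted libraries on the left and the tumor libraries on the right, with 95% Clopper-Pearson intervals. KO (red) lies to the right of WT (dark) in every row shown, and the intervals overlap only in cancer stem cells of the tumor libraries.

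Fos was lower in KO in 8 of 14 sorted classes, the lymphoid ones, hematopoietic stem cells and myeloid DC, and in 4 of 14 by total UMIs. Tregs had 663 CPM in KO sorted and 1744 CPM in WT sorted (-1.83), and B cells had 1090.4 CPM in KO sorted and 1940.4 CPM in WT sorted (-1.28). In the tumor libraries B cells again had less Fos in KO, with 798 CPM in KO tumor and 1514 CPM in WT tumor (-1.12). M2 macrophages were near each other in the sorted libraries (1957 CPM in KO and 1844 CPM in WT, a ratio of -0.28) and apart in the tumor libraries (1419 CPM in KO and 596 CPM in WT, 0.90). Tumor M2 macrophages differed in makeup, with macrophage markers at 3564 CPM in KO and 972 CPM in WT and fibroblast markers at 239 CPM in KO and 793 CPM in WT, and the part of this in the ratios of that class was not tested.

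Fosb, a Fos relative, was lower in KO in 5 of 14 sorted classes (3 of 11 without the 3 names that go against their markers) and higher in neutrophils. Its ratio was -1.34 in Tregs (517 CPM in KO sorted and 972 CPM in WT sorted) and -1.17 in B cells (628 and 1042 CPM). The share of Fosb among Fosb and Fos UMIs was higher in KO in 12 of 13 sorted classes, with intervals apart in 7, and in 5 of 7 tumor classes, with intervals apart in 4. It rests on the same UMIs as the Fosb and Fos ratios and is not separate support for either. Scaling changed the sign of the median Fosb ratio over the sorted classes, which was -0.36 relative to the median gene and 0.03 by total UMIs. Ier2, a nuclear protein of the same early wave, was lower in 6 of 14 sorted classes, with 431 CPM in KO sorted and 703 CPM in WT sorted B cells (-1.15), and lower in only 3 of 14 by total UMIs. In the tumor libraries no class passed 1.5-fold for Fosb or Ier2, at medians of 0.37 and 0.17, whereas by total UMIs 4 of 7 classes were higher in KO for Fosb and 1 of 7 for Ier2.

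Sorted neutrophils had the most members higher in KO of the 14 classes, 7 of 9 measured, with Atf3 lower. Over all genes of that class 26.5% were higher and 29.6% lower. Among the 7, Nr4a3 (119 CPM in KO sorted and 54.2 CPM in WT sorted, 0.74) changed sign after thinning (-0.16). Fosb stood at 2605 CPM in KO sorted and 158 CPM in WT sorted, a log2 ratio of 3.65 (3.42 to 3.89). Ier2 had 2886 CPM in KO sorted and 564 CPM in WT sorted (1.96), and Fos 3686 and 1296 CPM (1.11). Only 87 KO neutrophils were present against 432 WT neutrophils, with median depths of 1936 and 2597 UMIs. Neutrophil markers summed to 34608 CPM in KO and 76567 CPM in WT, and erythroid markers to 0 CPM in KO and 6119 CPM in WT. The part of these differences in the neutrophil ratios was not tested. After thinning, which left 42 KO and 326 WT cells, 24 KO cells (57.1%) and 52 WT cells had a Fosb UMI (40.2% of KO and 20.1% of WT cells unthinned), against 5.26% of KO and 8.18% of WT of sorted cancer stem cells.

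Atf3 was lower in KO in 8 of 10 sorted classes measured and higher in KO in 3 of 4 tumor classes. By total UMIs it was lower in 4 and higher in 1 of the 10 sorted classes. Sorted M2 macrophages had 479.7 CPM in KO and 875 CPM in WT (-1.23, -1.31 to -1.16), whereas tumor M2 macrophages had 394 CPM in KO and 84.7 CPM in WT (1.87, 1.54 to 2.21). Sorted NB cells had 115 CPM in KO and 225 CPM in WT (-1.23), and tumor NB cells 115 CPM in KO and 19.5 CPM in WT (2.37, 2.27 to 2.47). Macrophage markers in sorted NB cells summed to 1119 CPM in KO and 4497 CPM in WT, against 7.48 CPM in KO and 9.68 CPM in WT tumor NB cells, and their part in the Atf3 ratios was not tested. In both classes WT tumor was the lowest of the 4 libraries. Tumor fibroblasts, the class with the most cells, had 119 CPM in KO and 25.2 CPM in WT (1.95, 1.86 to 2.04). Of tumor fibroblasts thinned to 2000 UMIs, 13.7% of 2484 KO cells and 3.05% of 2457 WT cells had an Atf3 UMI (40.6% and 14.4% unthinned), and in B cells, which hardly express Atf3, the thinned shares were 2.46% in KO sorted and 2.39% in WT sorted. In M1 macrophages the tumor libraries did not differ (168 CPM in KO and 169 CPM in WT, -0.20) while the sorted ones did (309.7 CPM in KO and 453 CPM in WT, -0.85).

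Dusp1, the MAP kinase phosphatase, was higher in KO in 9 of 14 sorted classes and lower in none. CD4 T cells had 614 CPM in KO sorted and 164 CPM in WT sorted (1.39, 1.13 to 1.66), and NK cells had 894 and 318 CPM (1.13). After thinning, 58.0% of KO and 25.1% of WT sorted CD4 T cells had a Dusp1 UMI (66.5% and 37.5% unthinned), against 23.7% and 8.18% of sorted cancer stem cells. In the tumor libraries Dusp1 was higher in KO in 4 of 6 classes (2 of 4 without hematopoietic stem and NB cells), led by M2 macrophages with 773 CPM in KO tumor and 196 CPM in WT tumor (1.63). B cells went the other way there, with 171 CPM in KO tumor and 314 CPM in WT tumor (-1.07, from 71 and 28 UMIs), and in sorted B cells Dusp1 was within 1.5-fold (376 CPM in KO and 358 CPM in WT, -0.38). Fibroblasts and NB cells were higher in KO in both preparations, at 1.01 and 0.94 in sorted and 0.63 and 0.69 in tumor.

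**Figure D4:**
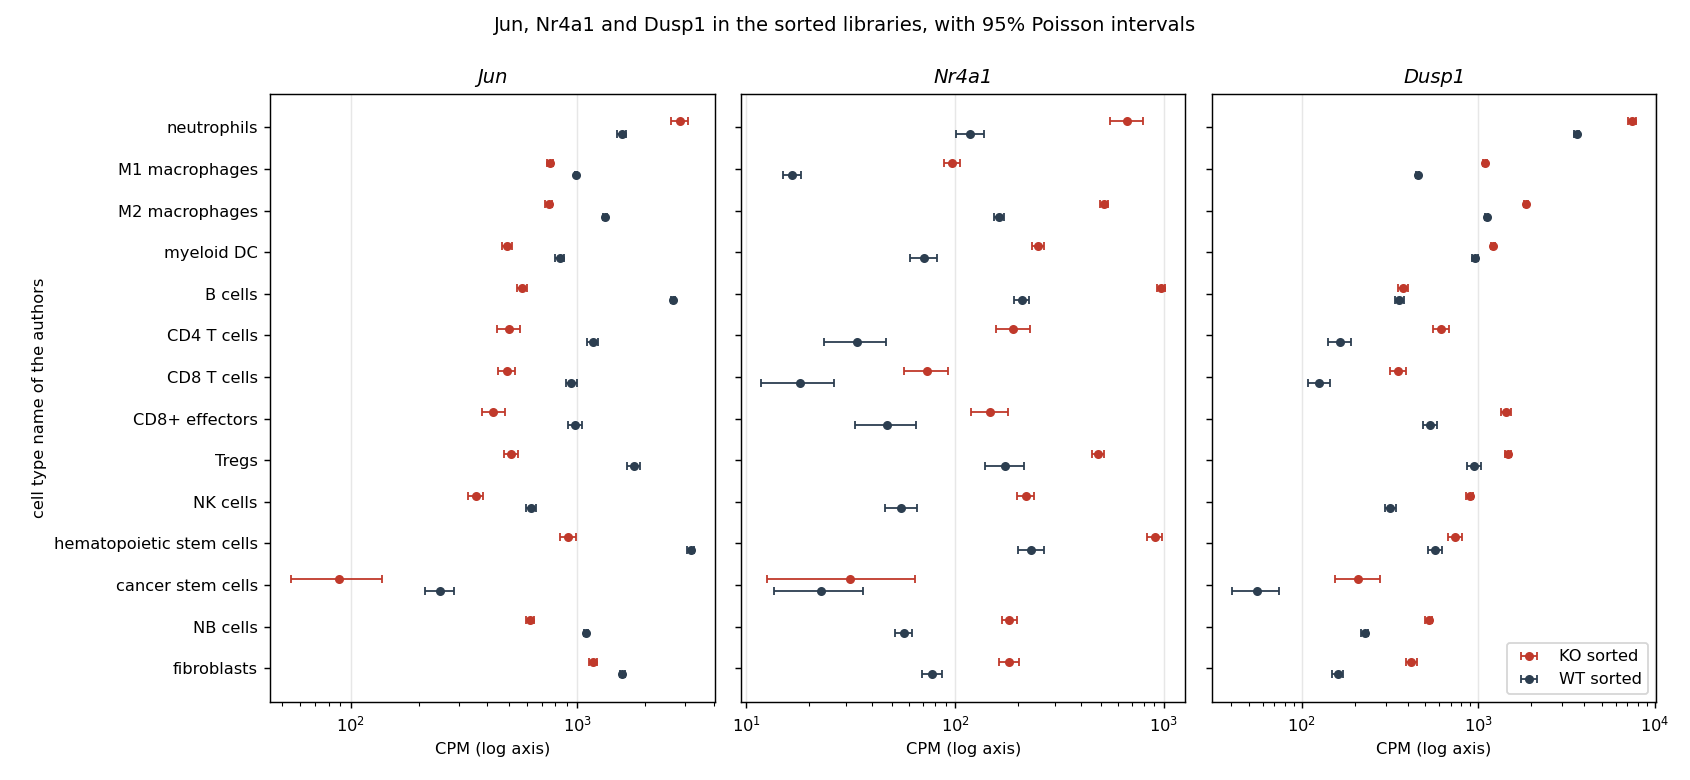
Levels of Jun, Nr4a1 and Dusp1 (CPM, log axis) in each cell type name of the KO sorted (red) and WT sorted (dark) libraries, with 95% Poisson intervals. Jun lies lower in KO in every row except neutrophils, whereas Nr4a1 and Dusp1 lie higher in KO, with overlapping intervals for Nr4a1 in cancer stem cells and for Dusp1 in B cells.

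Nr4a1 was the member whose KO to WT difference was called in the same direction in the most classes of both preparations. Sorted B cells had 973 CPM in KO and 208 CPM in WT (1.78, 1.65 to 1.91), and tumor B cells had 560.2 CPM in KO and 101 CPM in WT (2.28, 1.33 to 3.43). M1 macrophages had 96.9 CPM in KO sorted and 16.5 CPM in WT sorted (2.25), and 48.1 CPM in KO tumor and 13.5 CPM in WT tumor (1.64). By CPM both KO libraries were above both WT libraries in B cells, M1 macrophages and M2 macrophages (518 CPM in KO sorted, 163 in WT sorted, 193 in KO tumor and 62.1 in WT tumor). In M2 macrophages the intervals of KO tumor and WT sorted overlapped, so their order is not resolved. NB cells (1.42 in sorted and 1.20 in tumor) and fibroblasts (0.86 in both) were also higher in KO. Hematopoietic stem cells were 1.64 in sorted and 0.55 in tumor, under 1.5-fold.

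The Nr4a1 difference also held in shares of cells at equal depth. Of B cells thinned to 2000 UMIs, 65.8% of KO sorted and 27.3% of WT sorted cells had an Nr4a1 UMI (68.5% and 34.4% unthinned). Of M1 macrophages, 20.3% of KO sorted and 2.50% of WT sorted cells had one (38.6% and 18.7% unthinned). In sorted cancer stem cells, which were low in Nr4a1, the thinned shares were 2.63% in KO and 1.82% in WT, and WT M1 macrophages were near that level. The RNA of sorted cancer stem cells was mostly mitochondrial, so they are no reference of equal depth for other genes. Against Jun, Nr4a1 took a larger share of their joint UMIs in KO in 13 of 13 sorted classes, with intervals apart in 13 and medians of 27.6% in KO sorted and 6.82% in WT sorted. This share joins the Nr4a1 and Jun differences already given, from which it largely follows, and is not separate support for either.

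Nr4a3 had the widest ratios in the sorted cells. CD4 T cells had 143 CPM in KO sorted and 5.61 CPM in WT sorted, where the WT value rests on 6 UMIs, a ratio of 4.16 (2.98 to 5.64). Tregs had 288 CPM in KO sorted and 21.4 CPM in WT sorted (3.32, 2.47 to 4.33). The Treg class differed in makeup, since regulatory T cell markers summed to 5360.0 CPM in KO and 1434 CPM in WT and 7.07% of KO and 28.7% of WT cells carried markers of 2 lineages. Without those cells the Nr4a3 ratio in Tregs was 2.72, and the part of the marker difference was not tested. Sorted NB cells had 78.5 CPM in KO and 4.35 CPM in WT (3.91), while tumor NB cells had 0.623 CPM in KO and 0.736 CPM in WT (-0.43), and NK cell markers in the sorted NB cells summed to 630.5 CPM in KO and 193 CPM in WT, against 1.13 and 0.159 CPM in tumor NB cells. The part of this in the ratio was not tested. The tumor libraries allowed only 2 classes to be measured for Nr4a3, and neither passed 1.5-fold.

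Nr4a2 was higher in KO in 10 of 11 sorted classes. NK cells had 617 CPM in KO sorted and 103 CPM in WT sorted (2.22, 2.02 to 2.42), and KO tumor NK cells had 397 CPM. After thinning, 60.5% of KO and 20.5% of WT sorted NK cells had an Nr4a2 UMI (80.1% and 49.5% unthinned), against 0 of 38 KO and 0 of 110 WT sorted cancer stem cells. M2 macrophages had 144 CPM in KO sorted and 31.1 CPM in WT sorted (1.84), but 32.9 CPM in KO tumor and 20.7 CPM in WT tumor (0.32). Fibroblasts were lower in KO sorted by summed UMIs (36.2 CPM in KO and 48.5 CPM in WT, -0.80), yet the thinned share of cells was 9.38% in KO and 3.25% in WT, so no order is read from them. None of the 3 tumor classes measured for Nr4a2 passed 1.5-fold.

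In the tumor libraries 14 of 56 member and class pairs were higher in KO (25.0%, against 17.3% over all genes) and 3 were lower (5.36%, against 15.1%), with a median of 0.32. By total UMIs the split was 26 higher and 3 lower, again with no share over all genes computed for that scaling. B cells held all 3 lower pairs (Fos, Jun and Dusp1), and WT tumor B cells numbered 58. Of 55 pairs measured in both preparations, which share no library, 8 were higher in KO in both (14.5%, against 7.57% of all genes) and 2 were lower in both (3.64%, against 8.61%). The 8 were Nr4a1 in B cells, M1 macrophages, M2 macrophages, NB cells and fibroblasts, Dusp1 in NB cells and fibroblasts, and Junb in M2 macrophages. The NB name held cells with different markers in sorted and tumor libraries, so its pairs do not repeat a result in like cells. Barcodes also found in other libraries were carried by 18 of 78 KO and 27 of 164 WT sorted fibroblasts. Among sorted NB cells they were carried by 20 of 171 KO and 11 of 205 WT cells. The 2 lower pairs were Fos and Jun in B cells, and the 2 opposite pairs (3.64%) were Atf3 in M2 macrophages and NB cells. The share of opposite pairs over all genes was not computed.

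Cells carrying several members at once were also counted. At 2000 UMIs per cell, 75.4% of KO sorted and 60.4% of WT sorted M1 macrophages had UMIs of at least 3 of the 10 members, and 59.8% of KO tumor and 35.7% of WT tumor M1 macrophages did. Without thinning the order turned, with 75.1% in KO sorted and 84.9% in WT sorted, and 49.8% in KO tumor and 53.6% in WT tumor, at median depths of 10684, 25401, 2833 and 7618 UMIs. NK cells had 86.6% in KO sorted and 70.2% in WT sorted (96.2% in each unthinned). B cells were the reverse, at 91.9% in KO sorted and 95.6% in WT sorted (92.8% and 97.2% unthinned). Fibroblasts had 62.5% of 64 cells in KO sorted and 76.4% of 123 in WT sorted, with overlapping intervals (49.5% to 74.3% and 67.9% to 83.6%). In the tumor libraries they had 64.7% in KO and 54.5% in WT, with intervals apart. Unthinned, the fibroblast shares were 70.5% in KO sorted, 78.0% in WT sorted, 88.6% in KO tumor and 86.4% in WT tumor. Cancer stem cells stayed at 5.26% in KO sorted and 8.18% in WT sorted.

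The second comparison was between the sorted leukocytes and the total tumor cells of the same genotype, which adds a sort to the handling of the cells. These ratios reuse the libraries of the first comparison. In WT, 39 of 62 pairs were higher in sorted cells (62.9%, against 20.1% over all genes) and 0 were lower (against 17.3%), with a median of 0.96. In KO, 51 of 111 pairs were higher in sorted cells (45.9%, against 20.2%) and 7 were lower (6.31%, against 22.0%), with a median of 0.45. Without the cancer stem, hematopoietic stem and NB cell names, a choice made after seeing the data, the WT count was 18 of 38 pairs. In the classes left, the share of all genes higher in WT sorted was 22.5% in B cells and 7.40% in fibroblasts. It was 11.2% in M1 macrophages and 33.2% in M2 macrophages. Which cells a name holds, the sort and the other steps of each preparation cannot be told apart here.

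Dusp1 showed this difference most widely, with higher levels in sorted cells in 11 of 12 KO classes and 6 of 7 WT classes. M2 macrophages had 1863 CPM in KO sorted against 773 CPM in KO tumor (1.06), and 1117 CPM in WT sorted against 196 CPM in WT tumor (2.21). M1 macrophages had 1092 CPM in KO sorted against 317 CPM in KO tumor (1.73), and 453 CPM in WT sorted against 188 CPM in WT tumor (1.23). In WT B cells Dusp1 did not differ (358 CPM in sorted and 314 CPM in tumor, 0.11).

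Atf3 was higher in sorted cells in 2 of 7 KO classes and in 5 of 6 WT classes. Fibroblasts of the WT libraries had 114 CPM in sorted and 25.2 CPM in tumor (2.17), and those of the KO libraries 179.5 and 119 CPM (0.38). Junb was higher in sorted cells in 7 of 12 KO and 5 of 7 WT classes, and Nr4a1 in 8 of 11 KO and 5 of 6 WT classes. Jun stood apart from them in KO, being lower in sorted cells in 5 of 12 classes and higher in 1 (2 lower and 0 higher by total UMIs), with CD4 T cells at 498 CPM in KO sorted and 973 CPM in KO tumor (-1.31). In WT, Jun was higher in sorted cells in 2 of 7 classes, cancer stem cells and hematopoietic stem cells. Fos, Fosb and Ier2 were higher in sorted cells in 4, 1 and 1 KO classes and in 6, 3 and 2 WT classes. By total UMIs the counts for Fosb and Ier2 were 2 and 2 in KO, and that for Ier2 was 1 in WT. Without the 3 names that go against their markers, the KO counts of classes higher in sorted cells were 2 of 9 for Fos, 4 of 9 for Junb and 0 of 9 for Jun and Ier2. The WT counts were then 3 of 4 for Fos, Atf3, Dusp1 and Nr4a1, 2 of 4 for Junb, 1 of 4 for Fosb and 0 of 4 for Jun and Ier2.

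**Figure D5:**
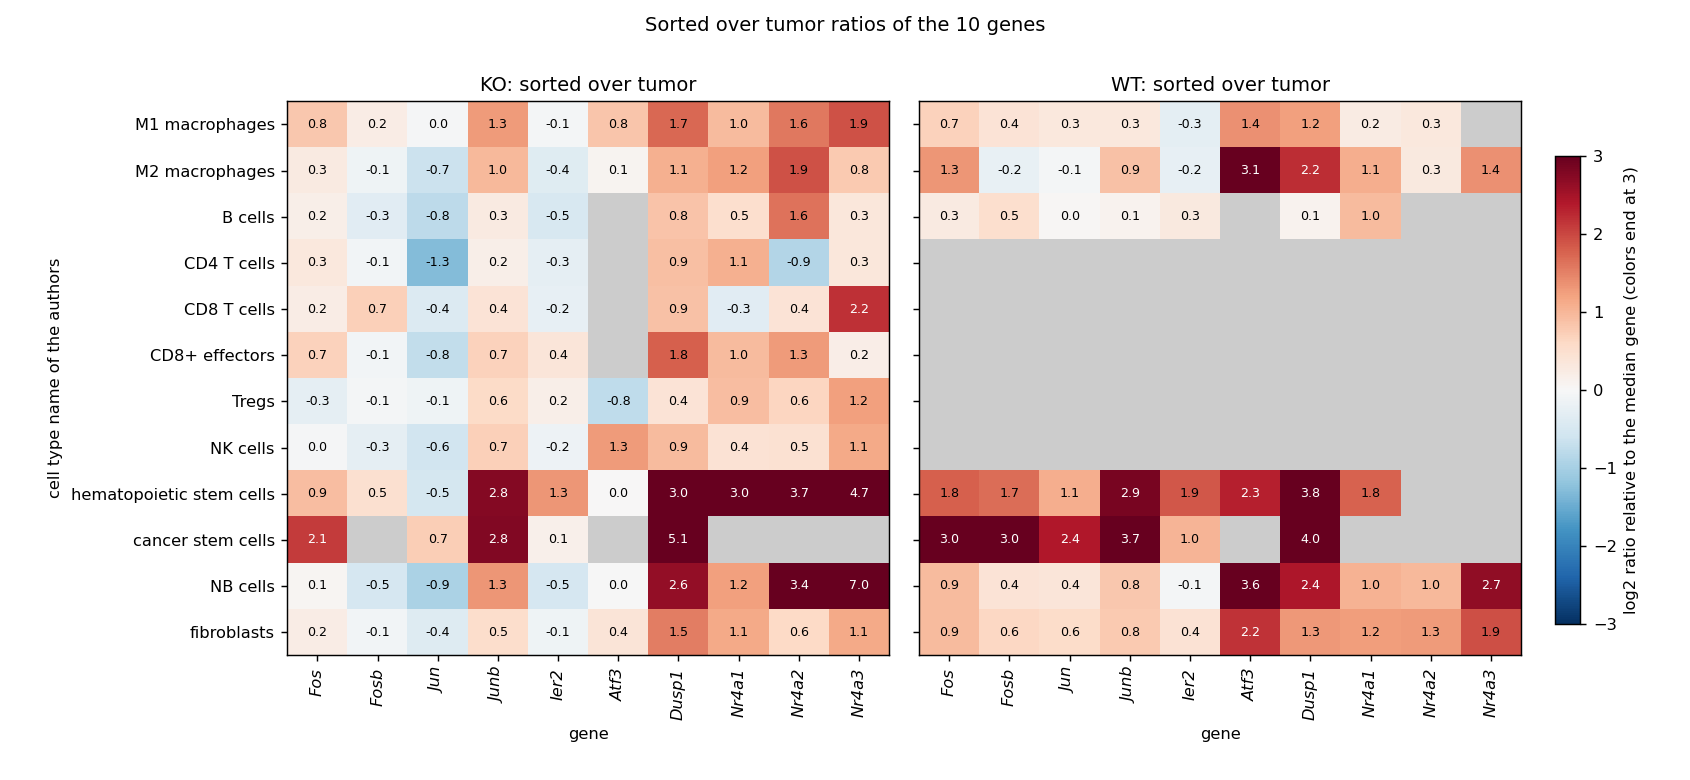
Log2 ratios of sorted over tumor, relative to the median gene, for the 10 genes (columns) in each cell type name (rows), in the KO libraries on the left and the WT libraries on the right. Red is higher in sorted cells, blue lower, and grey marks fewer than 50 cells, fewer than 50 UMIs or a library with 0 UMIs; the Dusp1 column is red in every row measured, from 0.41 in Tregs to 5.08 in cancer stem cells in KO.

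Genes of the same pathways were counted from fixed lists, whose genes were not tested as groups. Over the pairs of all genes, 22.3% were higher and 24.6% lower in KO sorted, and 17.3% higher and 15.1% lower in KO tumor. The genes named passed 1.5-fold in the same direction in both preparations, with at most 3 per list and direction, taken by summed ratio. Of the other AP-1 and related bZIP genes, 21 of 100 pairs were higher and 19 lower in KO sorted, and 5 of 43 were higher and 9 lower in KO tumor, which in sorted cells is no more than the share over all genes. Jund, the remaining Jun family member, was lower in KO in B cells of both preparations (-1.01 in sorted and -0.68 in tumor). Fosl1 was lower in KO in M2 macrophages (-1.26 in sorted and -2.17 in tumor), Batf was lower in fibroblasts (-1.46 and -1.20), and Batf3, a bZIP factor of dendritic cells, was higher in M2 macrophages (1.32 and 3.67).

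Of the other immediate early genes, 76 of 262 pairs were higher and 56 lower in KO sorted, and 38 of 108 were higher and 14 lower in KO tumor. Egr3, a zinc finger factor induced by antigen receptors, was higher in KO in B cells (1.58 in sorted and 4.09 in tumor), and Egr2 in M1 macrophages (2.49 and 1.29). Zfp36, which destabilizes cytokine mRNAs, was higher in M2 macrophages (0.85 and 2.68) and lower in fibroblasts (-2.78 and -2.86). Cebpd was lower in NB cells (-0.66 and -2.80) and Cebpb in fibroblasts (-1.30 and -1.0).

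Among antigen receptor response genes 54 of 87 pairs were higher and 7 lower in KO sorted, and 8 of 21 were higher and 3 lower in KO tumor. These pairs were not confined to lymphocytes. In KO sorted M1 macrophages 8 of 9 genes were higher and 0 lower, against 20.1% of all genes higher. In CD8 T cells 2 of 4 were higher and 1 lower, against 23.8% of all genes higher. Egr2 and Egr3 are also counted among the other immediate early genes. In B cells Irf4, a transcription factor of activated B cells and plasma cells, was higher in KO (2.0 in sorted and 2.04 in tumor), as was Egr3, and Tnfrsf9 was lower in M2 macrophages (-1.06 and -2.69). Other dual-specificity phosphatases were higher in 35 of 69 pairs and lower in 6 in KO sorted, and higher in 10 of 19 and lower in 5 in KO tumor. Dusp5 was higher in NB cells (2.59 in sorted and 1.70 in tumor), Dusp16 in fibroblasts (2.25 and 1.56), Dusp10 in NB cells (1.78 and 1.04), and Dusp2 was lower in B cells (-1.28 and -1.24). Of the upstream regulators, with 14 of 16 in the matrix, 58 of 147 pairs were higher and 11 lower in KO sorted, and 7 of 59 were higher and 3 lower in KO tumor, and Creb1 was higher in M2 macrophages (0.64 and 1.05).

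Heat shock genes, another group induced by handling and stress, were lower in KO sorted in 50 of 102 pairs and higher in 10, and split evenly in the tumor libraries, with 10 higher and 10 lower of 50. Hspb1 was lower in KO in NB cells (-5.62 in sorted and -3.13 in tumor), Dnajb1 in hematopoietic stem cells (-1.75 and -1.51) and Hspa1a in B cells (-1.75 and -1.27), and in M1 macrophages Hspa1b was higher (1.55 and 1.12). RNA of erythrocytes and platelets was lower in KO in 22 of 23 sorted and 19 of 25 tumor pairs, and neutrophil RNA in 15 of 20 sorted pairs and 1 of 3 tumor pairs. The part of these in the members' ratios was not tested.

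Likeness of pattern was described by Pearson's r of log2(CPM + 10) over the 50 class and library units with at least 50 cells, which share 4 libraries and their depths. Of 11303 genes, those most like the mean of the 7 immediate early genes included Btg2 (0.84), an antiproliferative gene, Ier5 (0.84), Nfkbiz (0.81), Mcl1, Nfkbia, Ccnl1, Klf6, Tbc1d23 and Rab5a (each 0.78 to 0.80). Nr4a1 was most like Kdm6b (0.86), a histone demethylase gene, followed by Tor1aip1, Arl5b, Ep300 and Med13. Genes most like Nr4a2 included Mtmr1, Nlrc5, Klrk1 and Atp6v0a2 (0.81 to 0.84), and Nr4a3 was most like Tle3 (0.90), Dusp5, Stat3, Nabp1 and Gpr132. Among the members themselves Fos went with Fosb (0.81) and Jun (0.79), Junb with Dusp1 (0.80) and Ier2 (0.79), and Nr4a2 with Nr4a3 (0.79), while Jun had -0.21 with Nr4a2 and -0.16 with Nr4a3.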

How the data were processed

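The members, gene lists and comparisons were chosen with earlier results of these data known. Per the submitters' processing notes, reads were processed with Cell Ranger 6.0.1 and Seurat 4.0.5 on mm10. The authors deposited a matrix of the natural log (ln) of 1 plus UMIs scaled to 10000 per cell, and a cell table with library, cell type name and the count of UMIs per cell. Each value was turned back into UMIs with that deposited count: of 60957742 nonzero values 0 were further than 0.01 from a whole number, and all 20376 cells (500 to 126881 UMIs) matched their totals. How the deposited cells were chosen, and whether doublets were removed before deposit, is not given in the sources used here. No doublets were removed in the main analysis.

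UMIs were summed by cell type name and library. Levels are CPM with exact Poisson intervals, shares have Clopper-Pearson intervals and ratios conditional binomial intervals (95%). A class needed 50 cells in each library and a gene 50 UMIs over both libraries, and a gene was called at 1.5-fold from the median gene. A zero was replaced by a floor of 3 counts, and such a ratio was called only in the direction it bounds. For shares, cells were thinned to 2000 UMIs (seed 1), leaving out shallower cells. The steps were checked on simulated counts. With 1 library per group no test was made. List genes were named by the rule that at most 3 per list and direction, with the largest ratios past 1.5-fold in both preparations, are printed. Some of the genes most alike in pattern are not reported here. Alternatives covered scaling, weighting, depth, filters on cells, doublets and UMIs, the fold and the class size. Gene positions came from GENCODE and promoters from RefSeq, which matched 9 of the 10 members. Software was Python 3.11.15 with numpy 2.4.6, scipy 1.17.1, pandas 2.3.3 and matplotlib 3.10.9.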

Additional observations from a re-analysis of the deposited data

Results flagged for a closer look

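Atf3 moved in opposite directions between KO and WT in the sorted and the tumor libraries in 2 cell type names. How often other genes did so was not computed. In M2 macrophages its log2 ratio of KO over WT was -1.23 in the sorted libraries and 1.87 in the tumor libraries. In NB cells the ratio was -1.23 in the sorted libraries and 2.37 in the tumor libraries. The cells behind these names differed: macrophage markers summed to 1119 CPM in KO and 4497 CPM in WT sorted NB cells, against 7.48 CPM in KO and 9.68 CPM in WT tumor NB cells, and in tumor M2 macrophages they summed to 3564 CPM in KO and 972 CPM in WT. The part of these values in the ratios was not tested. The difference between the preparations was not tested, because each ratio compares 1 library with 1 library.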

How the results depend on the processing

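No paired analysis was possible because a single library name was shared by all cells of a group, so no replicate could be left out either. Over 7 settings of scaling, weighting, depth and cells, 1803 of 2513 recomputed member ratios stayed within their counting interval, 690 moved outside it and 20 that had passed 1.5-fold changed sign. Scaled by total UMIs, 26 pairs were lower in KO sorted (41 as reported), 26 higher in KO tumor (14) and 3 lower in KO sorted than KO tumor (7). At 2-fold, 25 pairs were lower in KO sorted, 9 higher in KO tumor, 32 higher (51 as reported) and 1 lower in KO sorted than KO tumor. With at least 100 cells per class, 8 of 40 pairs were higher and 0 lower (3 as reported) in KO tumor, and 33 of 64 higher and 4 lower in KO sorted than KO tumor. The stricter cell filter gave 6 pairs lower in KO tumor, and equal weight per cell 11 lower in KO sorted than KO tumor. With at least 20 UMIs or with no filter on UMIs, 1 pair was lower in WT sorted than WT tumor (0 as reported). For these settings the share over all genes was not computed, so the counts have no background beside them. Without cancer stem, hematopoietic stem and NB cells, a setting added after seeing the data, 18 pairs were higher in WT sorted than WT tumor (39 as reported).

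For KO over WT in sorted cells, ratios changed sign for Nr4a2 in fibroblasts (0.21 with equal weight per cell, 1.92 thinned), Fosb in cancer stem cells (0.42 without doublets) and Nr4a3 in neutrophils (-0.16 thinned). For WT sorted over WT tumor they did for Ier2 in cancer stem cells (-0.17 by total UMIs, -0.51 with equal weight), Jun in hematopoietic stem cells (-0.28 under the stricter filter), and, thinned, Nr4a2 in fibroblasts (-0.09) and Nr4a3 in M2 macrophages (-1.64). For KO sorted over KO tumor they did for Jun in cancer stem cells (-0.31 by total UMIs, -0.33 thinned, -1.46 stricter), Nr4a2 and Nr4a3 in hematopoietic stem cells (-0.42 and -1.56, stricter), and, thinned, Jun (0.11) and Nr4a2 (-1.23) in B cells, Atf3 and Nr4a3 in M1 macrophages (-0.08 and -0.03), Nr4a3 in M2 macrophages (-0.03) and Atf3 in NK cells (-0.57). The causes were not tested. Thinning left few cells in shallow classes, such as 18 KO and 6 WT tumor B cells, so low genes are not resolved there.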
